A study of Mus musculus with 6 samples.

Results

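The let-7 and miR-98 family comprised the 9 mature miRNAs let-7a-5p, let-7b-5p, let-7c-5p, let-7d-5p, let-7e-5p, let-7f-5p, let-7g-5p, let-7i-5p and miR-98-5p, picked by their miRBase accessions (MIMAT0000521 to MIMAT0000525 for a, b, c, e and f, and MIMAT0000383, MIMAT0000121, MIMAT0000122 and MIMAT0000545 for d, g, i and miR-98). All 9 were found among the 707 mature miRNAs counted, and all 9 passed the filter on low counts. The counts came from small RNA libraries of white adipose tissue (WAT) from male ApoE-deficient mice, 3 libraries labelled control and 3 from mice exposed to chronic intermittent hypoxia (CIH), repeated cycles of low and normal oxygen that model obstructive sleep apnea. Both groups lacked apolipoprotein E, which clears lipoproteins from blood, and no wild-type animals were included, so effects of CIH without this deletion cannot be told apart from effects in its presence. The labels name neither the fat depot, the strain nor the age of the mice. The labelled tissue was not checked against marker miRNAs, since the sources used here pair accessions with names for these 9 members only.

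The family is among the most conserved groups of animal miRNAs. Mature let-7 miRNAs guide Argonaute proteins to messenger RNAs through the seed near their 5′ end, and they repress growth and developmental genes such as Hmga2, Myc and Ras genes. The RNA-binding protein LIN28 blocks the maturation of let-7 precursors, so let-7 levels are low in embryonic cells and high in differentiated tissue. The LIN28 and let-7 pair also acts on insulin signaling and glucose metabolism, and let-7 rises during fat cell differentiation, where Hmga2 is a known target.

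The 9 mature sequences are shown because all members carry an identical seed and differ at only a few other bases, which is what a read counter must use to tell them apart. They are RefSeq sequences on build GRCm38.p6, written 5′ to 3′ with the seed, bases 2 to 8, in capitals.
let-7a-5p: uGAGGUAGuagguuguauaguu
let-7b-5p: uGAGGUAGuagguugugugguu
let-7c-5p: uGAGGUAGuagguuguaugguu
let-7d-5p: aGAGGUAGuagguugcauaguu
let-7e-5p: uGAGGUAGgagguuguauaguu
let-7f-5p: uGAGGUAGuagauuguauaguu
let-7g-5p: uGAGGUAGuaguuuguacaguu
let-7i-5p: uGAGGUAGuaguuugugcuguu
miR-98-5p: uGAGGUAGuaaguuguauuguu

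All 9 were 22 bases long, so length does not enter comparisons of their counts. Whether members of different sequence are counted with equal efficiency was not tested, so comparisons between members are of counts. With positions counted from 1 at the 5′ end of let-7a-5p, let-7c-5p differed from it by A19G, let-7e-5p by U9G and let-7f-5p by G12A. The substitutions were A17G and A19G in let-7b-5p, U1A and U16C in let-7d-5p, G12U and U18C in let-7g-5p, and G11A and A19U in miR-98-5p. The most distant member was let-7i-5p, with G12U, A17G, U18C and A19U. Of the 36 pairs of members, 4 differed at a single base, namely let-7a with let-7c, let-7e and let-7f, and let-7b with let-7c. The seed GAGGUAG was found in 11 of the 1679 mouse mature names in the RefSeq table (0.655%), which are the 9 members, let-7k and miR-1961. The last pair was not joined to the counts.

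The 9 mature sequences were encoded by 12 hairpins on 7 chromosomes of GRCm38. All coordinates in parentheses are those of the mature miRNA within the named hairpin. The mature let-7a-5p lies in Mirlet7a-1 (chr13:48538239-48538260, minus strand) and Mirlet7a-2 (chr9:41536732-41536753, plus strand). Likewise, let-7f-5p lies in Mirlet7f-1 (chr13:48537889-48537910, minus strand) and Mirlet7f-2 (chrX:151912353-151912374, plus strand), and let-7c-5p in Mirlet7c-1 (chr16:77599672-77599693, plus strand) and Mirlet7c-2 (chr15:85706616-85706637, plus strand). Reads of these 3 mature miRNAs do not tell their loci apart. Mirlet7a-1, Mirlet7f-1 and Mirlet7d (mature let-7d-5p at chr13:48536078-48536099, minus strand) lie in exons of the noncoding gene 6720427I07Rik. Mirlet7b (chr15:85707325-85707346, plus strand) lies beside Mirlet7c-2 in an exon of the noncoding gene Lncppara. Mir98 (chrX:151913229-151913250, plus strand) and Mirlet7f-2 lie within 10 kb of each other in introns of Huwe1, a ubiquitin ligase gene. Mirlet7e (chr17:17830366-17830387, plus strand) lies in an intron of Spaca6, with Mir99b and Mir125a within 10 kb. Mirlet7g (chr9:106178846-106178867, plus strand) lies in an intron of Wdr82, and Mirlet7i (chr10:122985698-122985719, minus strand) in an exon of the transcribed pseudogene D630033A02Rik. No other miRNA gene was annotated within 10 kb of Mirlet7g or Mirlet7i.

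The libraries held between 636963 and 4783768 counts, and the members' counts ran from 73 (miR-98-5p in CIH 3) to 146955 (let-7f-5p in control 2). Levels are given as TMM-normalized CPM, counts scaled to a common library size after a correction of the totals for composition, with factors between 0.575 in control 1 and 1.45 in CIH 3. The libraries did not fall into their groups. Control 1 and control 2 had counts for 487 and 552 miRNAs and the others for 631 to 649, although control 2 was the deepest library. Across the 633 miRNAs tested, log2 CPM of control 3 correlated with the CIH libraries at 0.958 to 0.974 and with control 1 and control 2 at 0.595 and 0.661, while control 1 and control 2 correlated at 0.831. These are descriptions across miRNAs, which are not independent replicates. Values without control 3 are given for the levels and for the shares within the family.

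As a whole, the family's share of the miRNA counts overlapped between control and CIH libraries. Its 9 members made up 4.32%, 5.46% and 4.88% of all counts in control 1, 2 and 3 and 3.29%, 5.06% and 4.33% in CIH 1, 2 and 3. The widest 95% Wilson interval, that of CIH 2, ran from 5.01% to 5.11%, and these intervals cover counting error only. The groups overlapped, and the lowest share was that of CIH 1. The mean was 4.89% ± 0.570 (SD, n = 3) for control libraries and 4.23% ± 0.889 (SD, n = 3) for CIH libraries. An exact two-sided permutation test of this difference gave p = 0.5, where 3 libraries against 3 cannot go below 0.1. The difference of CIH minus control was -0.66 percentage points, it lay between -1.08 (without CIH 2) and -0.19 (without CIH 1) when single libraries were left out, and it was -1.95 with the 5 most abundant miRNAs outside the family left out of the total. On the TMM scale the summed level was 75081, 63025 and 34910 CPM in control 1, 2 and 3 and 41719, 40326 and 29912 in CIH 1, 2 and 3 (same exact permutation test, p = 0.3). Control 1 and control 2 were above the other 4 libraries on the TMM scale, and not on the scale of library totals.

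The most abundant member by mean level was let-7f-5p, and it was also among the members whose level differed most between libraries. Its level was 33809, 35455 and 8516 TMM-normalized CPM in control 1, 2 and 3 and 13228, 10003 and 8271 in CIH 1, 2 and 3. On this scale control 1 and control 2 were at least 2.56-fold above every other library, and control 3 lay within the range of the CIH group. The gap was smaller by library totals. There let-7f-5p was at 19455 and 30720 CPM in control 1 and control 2 and between 10439 and 12553 CPM in the other libraries. It ranked 8 among all miRNAs in control 1 and control 2 and between 12 and 13 in the other libraries. The means were 25927 ± 15100 (SD, n = 3) for control libraries and 10501 ± 2516 (SD, n = 3) for CIH libraries. The log2 fold change of CIH against control was -1.30 (standard error 0.78, adjusted p = 0.882 over the 633 miRNAs tested with edgeR's quasi-likelihood test).

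Next by level came let-7g-5p and let-7i-5p, which share the base change G12U and differed in which libraries were high. For let-7g-5p the level was 13182, 6631 and 11403 TMM-normalized CPM in control 1, 2 and 3 and 10436, 12971 and 7231 in CIH 1, 2 and 3. Control 2 was the lowest library and control 1 the highest, and the groups overlapped almost fully. The fitted log2 fold change was -0.03, with a standard error of 0.64 (adjusted p = 0.991, edgeR), and it turned to 0.26 with library totals. In contrast, let-7i-5p had 17488, 11520 and 6294 CPM in control 1, 2 and 3, against 8897, 7196 and 5353 in CIH 1, 2 and 3. Control 1 and control 2 were again above all others, also by library totals, and on the TMM scale control 3 was below CIH 1 and CIH 2. The fitted log2 fold change was -0.72, with a standard error of 0.68 (adjusted p = 0.882, edgeR).

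Both let-7c-5p and let-7a-5p, which differ by A19G, stayed within a narrow range on the TMM scale. The level of let-7c-5p was 4082, 4251 and 4418 TMM-normalized CPM in control 1, 2 and 3 and 5047, 5219 and 4240 in CIH 1, 2 and 3. For let-7a-5p it was 2394, 1913 and 2404, then 2033, 2505 and 2464, in the same order of libraries. On this scale no library stood apart for either of them. By library totals let-7c-5p was at 2349 and 3683 CPM in control 1 and control 2, and between 3983 and 6549 CPM elsewhere. With the same totals let-7a-5p ran from 1378 CPM in control 1 to 3567 CPM in CIH 3. Their log2 fold changes were 0.19 (standard error 0.56, adjusted p = 0.911, edgeR) for let-7c-5p and 0.06 (standard error 0.55, adjusted p = 0.969, edgeR) for let-7a-5p. With upper-quartile factors, which moved the median of all miRNAs to -0.52, both values turned negative, to -0.43 and -0.53.

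The less abundant let-7b-5p, let-7d-5p and let-7e-5p were each highest in control 1 and control 2 on the TMM scale, which did not hold by library totals. The level of let-7b-5p was 1816 and 1842 TMM-normalized CPM in these libraries, 1022 in control 3 and between 1071 and 1577 in the CIH libraries. For let-7d-5p the levels were 765 and 654, then 442 in control 3 and between 437 and 486 in the CIH libraries. For let-7e-5p they were 589 and 559, then 294 in control 3 and between 259 and 358 in the CIH libraries. The groups overlapped for all 3 because of control 3. Their log2 fold changes were -0.17, -0.45 and -0.57, with standard errors between 0.55 and 0.59 and adjusted p-values between 0.882 and 0.911 from edgeR. The sign of let-7b-5p turned with library totals (0.30).

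The least abundant member, miR-98-5p, had the widest range of the family, and control 1 set it. Its counts were 752, 828 and 130 in control 1, 2 and 3 and 205, 121 and 73 in CIH 1, 2 and 3, from which the levels were 957, 200 and 117 TMM-normalized CPM and 165, 131 and 79.2. On the TMM scale the highest library was 12.1 times the lowest. The range was narrower by library totals, with 551 CPM in control 1 and 115 CPM in CIH 3, the lowest library. The fitted log2 fold change was -1.76, the most negative in the family, with a standard error of 0.93 (adjusted p = 0.882, edgeR), and without control 1 it was -0.34. Control 1 held 1.27% of the family's counts on miR-98-5p, against 0.265% to 0.395% in the other 5 libraries. The ratio of miR-98-5p to let-7f-5p, whose hairpin Mirlet7f-2 lies next to Mir98, was 0.0283 in control 1, 0.00563 in control 2 and between 0.00957 and 0.0138 in the other 4 libraries.

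**Figure D1:**
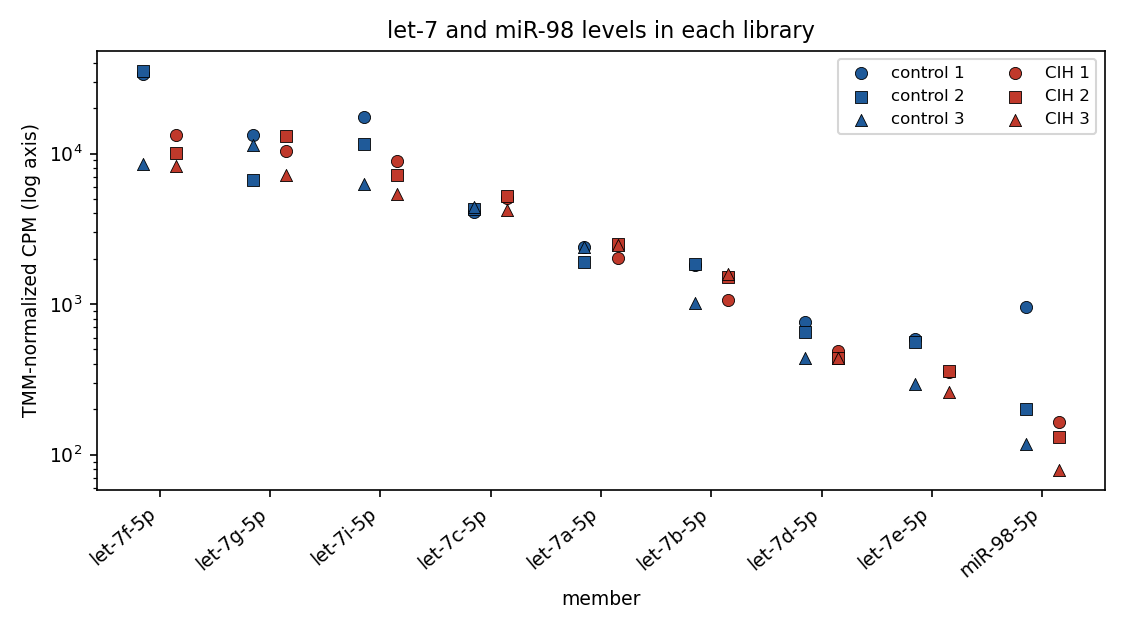
TMM-normalized CPM (log axis) of the 9 members, ordered by mean level, in control libraries 1 to 3 (blue) and CIH libraries 1 to 3 (red), with 1 point per library. For let-7f-5p, control 1 and control 2 sit at 33809 and 35455 and the other 4 libraries between 8271 and 13228, while all 6 points of let-7c-5p lie between 4082 and 5219.

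After adjustment, 0 of the 9 members passed an adjusted p-value of 0.05 in edgeR's test, and 0 of the 633 miRNAs did (0%). At an unadjusted p under 0.05 with at least a 1.5-fold change, 0 of the 9 members were called, against 16 of 633 miRNAs (2.53%). The p level is that of the study's statistics section, and the fold limit was added here. The smallest unadjusted p among the members was 0.102 (miR-98-5p) in edgeR, 0.0679 in DESeq2 and 0.167 in limma voom, and neither of the other tools called a member. The groups overlapped for all 9 members, while they did not overlap for 8.06% of the miRNAs tested. The log2 fold change was negative for 7 of the 9, with a median of -0.45, and negative for 47.6% of all miRNAs tested, with a median of 0.07. With library totals 5 of the 9 were negative, beside 38.4% of all miRNAs (median 0.33), and with upper-quartile factors 9 of the 9 were, beside 62.6% of all miRNAs (median -0.52).

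Leaving out control 3 changed this count. Without it, let-7f-5p had a log2 fold change of -1.72 (standard error 0.52, unadjusted p = 0.0174, adjusted p = 0.0726, edgeR) and miR-98-5p of -2.21 (standard error 0.74, unadjusted p = 0.0258, adjusted p = 0.0873, edgeR). These 2 members then met the unadjusted level with a 1.5-fold change, both lower in CIH, and 75 of the 633 miRNAs (11.8%) did so in that direction. In either direction, 238 of the 633 (37.6%) met it, 163 of them higher in CIH. The members' share of 2 in 9 was below this share and above the 11.8% lower in CIH. With only 2 members called, neither comparison is read as a result. At an adjusted p under 0.05 the count was 0 of 9 members and 118 of 633 miRNAs (18.6%). The values for let-7i-5p and let-7e-5p were -1.02 and -0.82 with adjusted p-values of 0.217 and 0.198. In the same fit let-7d-5p and let-7b-5p were at -0.64 and -0.40, and let-7a-5p, let-7c-5p and let-7g-5p were at 0.12, 0.21 and 0.04. The fit without control 3 rests on 2 control libraries, which stood apart from the other 4 over the whole table, and the part of that difference in these values was not tested.

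**Figure D2:**
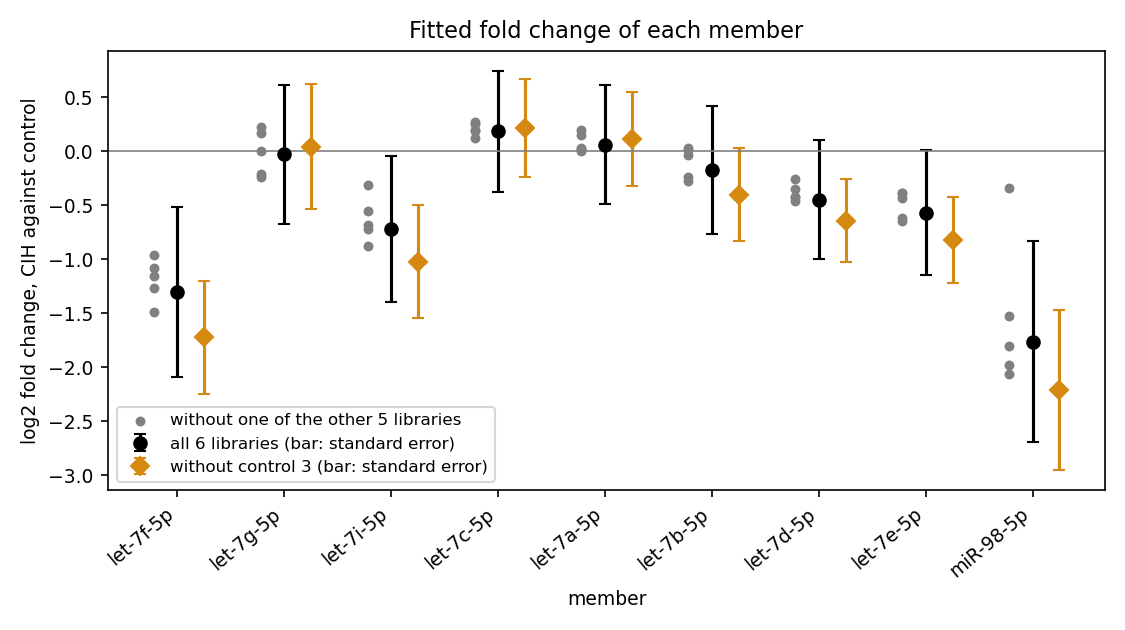
Log2 fold change of CIH against control for the 9 members from edgeR with all 6 libraries (black, standard error), without control 3 (orange, standard error) and without each of the other 5 libraries in turn (grey points). For let-7f-5p all values are negative, from -1.72 to -0.96, and the value of miR-98-5p moves from -1.76 to -0.34 without control 1.

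The composition of the family does not depend on the library total or on miRNAs outside it, and it separated control 1 and control 2 from the remaining libraries. The share of the family's counts on let-7f-5p was 45.0%, 56.3% and 24.4% in control 1, 2 and 3 and 31.7%, 24.8% and 27.7% in CIH 1, 2 and 3. For let-7g-5p the shares were 17.6%, 10.5% and 32.7% in control 1, 2 and 3, against 25.02%, 32.2% and 24.2% in CIH 1, 2 and 3. The share of let-7c-5p was 5.44% and 6.74% in control 1 and control 2, 12.7% in control 3 and between 12.1% and 14.2% in the CIH libraries. Thus let-7f-5p led the family clearly in control 1 and control 2, whereas let-7g-5p was ahead of it in control 3 and CIH 2. The let-7i-5p share lay between 17.8% and 23.3% and that of let-7e-5p between 0.785% and 0.888%, and these narrow ranges depended on the denominator. With let-7f-5p left out of it, let-7i-5p held 42.4% and 41.8% in control 1 and control 2, 23.8% in control 3 and between 23.7% and 31.2% in CIH, and its difference of CIH minus control went from -0.85 to -9.44 percentage points. That of let-7e-5p went from 0.03 to -0.31, and that of let-7d-5p from 0.13 to -0.24.

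**Figure D3:**
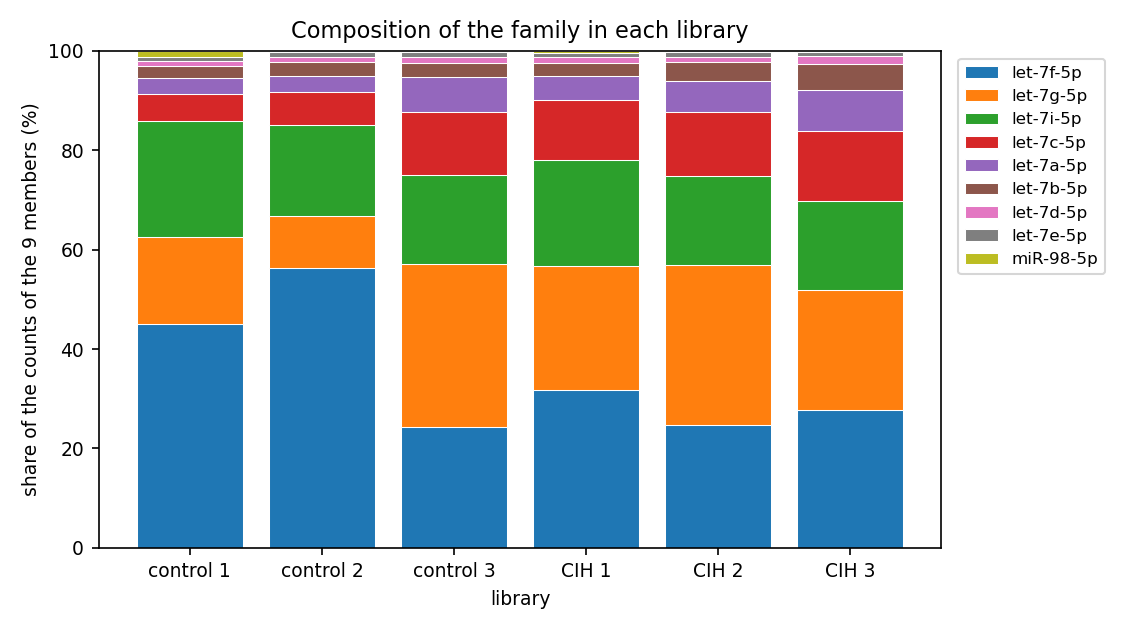
Share (%) of the summed raw counts of the 9 members taken by each member, with 1 stacked bar per library. The let-7f-5p segment covers 45.0% and 56.3% of control 1 and control 2 and 24.4% to 31.7% of the other 4 libraries.

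Between the groups, none of the 9 shares passed a test. The let-7f-5p share averaged 41.9% ± 16.2 (SD, n = 3) for control libraries and 28.1% ± 3.47 (SD, n = 3) for CIH libraries, with p = 0.4 from an exact two-sided permutation test. For let-7g-5p the means were 20.2% ± 11.3 (SD, n = 3) and 27.1% ± 4.39 (SD, n = 3), with an exact permutation p = 0.5. For let-7c-5p they were 8.28% ± 3.85 (SD, n = 3) and 13.1% ± 1.04 (SD, n = 3), with p = 0.2 in the same permutation test, the smallest p of the 9 shares. All 9 had an adjusted permutation p between 0.5625 and 0.6, in a design whose smallest raw p is 0.1. Single libraries moved these differences. For let-7f-5p the difference of CIH minus control was -13.8 percentage points, with -22.6 without control 3 and -6.66 without control 2. For let-7g-5p it was 6.87, with 13.1 without control 3 and 2.01 without control 2, and for let-7c-5p 4.79, with 6.98 without control 3 and 3.37 without control 1.

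Ratios of raw counts within a library need no scaling. There were 8.28 and 8.34 reads of let-7f-5p per read of let-7c-5p in control 1 and control 2, 1.93 in control 3, and 2.62, 1.92 and 1.95 in CIH 1, 2 and 3. Relative to let-7a-5p, from which it differs by G12A, let-7f-5p was at 14.1, 18.5 and 3.54 in control 1, 2 and 3, against 6.51, 3.99 and 3.36 in CIH 1, 2 and 3. The ratio of let-7i-5p to let-7g-5p was 1.33 and 1.74 in control 1 and control 2 and between 0.552 and 0.852 in the other 4 libraries. A ratio that changed little was that of let-7c-5p to let-7a-5p, which lay between 1.70 and 2.48 in all 6 libraries. Of the 10 ratios computed, none passed a test between the groups (smallest exact permutation p = 0.2, adjusted p = 0.667), and the groups overlapped in all of them.

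**Figure D4:**
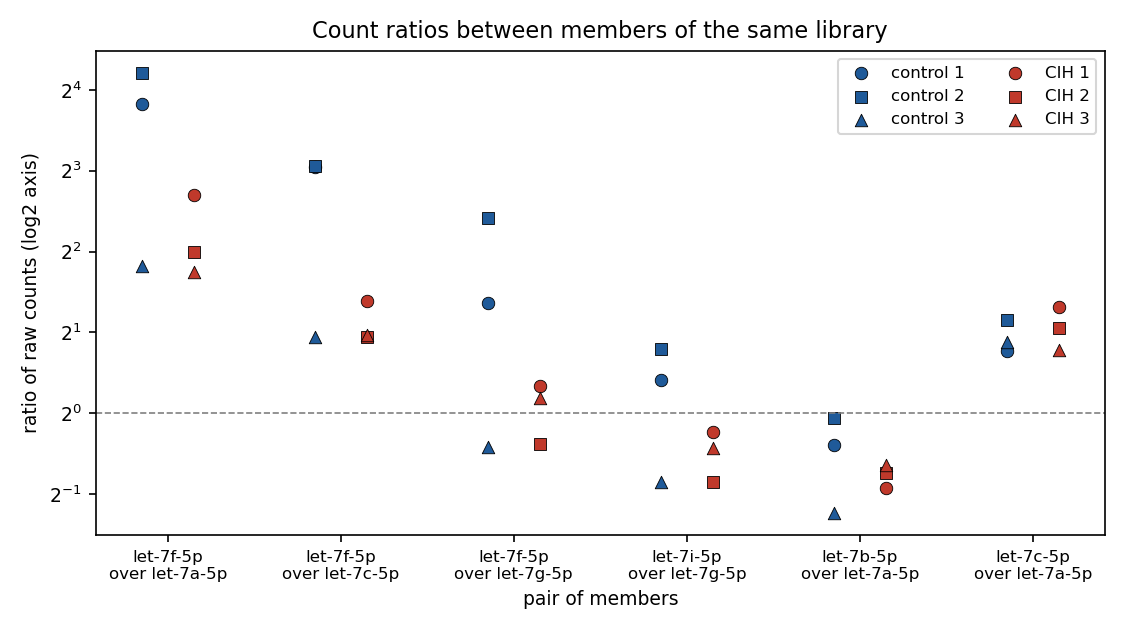
Ratio of raw counts (log2 axis) for 6 pairs of members in each control (blue) and CIH (red) library, with a dashed line at a ratio of 1. In the let-7f-5p to let-7c-5p ratio, control 1 and control 2 sit at 8.28 and 8.34 and the other 4 libraries between 1.92 and 2.62.

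By mean TMM-normalized CPM over the 6 libraries, the order of the members was let-7f-5p, let-7g-5p, let-7i-5p, let-7c-5p, let-7a-5p, let-7b-5p, let-7d-5p, let-7e-5p and miR-98-5p. The steps from let-7f-5p to let-7g-5p and from let-7g-5p to let-7i-5p were smaller than their spread. In every library let-7f-5p was above let-7i-5p, a pair that these steps do not compare directly. The log2 ratio of let-7f-5p to let-7g-5p averaged 0.59 ± 1.11 (SD, n = 6) with let-7f-5p higher in 4 of 6 libraries, and that of let-7g-5p to let-7i-5p averaged 0.19 ± 0.67 (SD, n = 6), with let-7g-5p higher in 4 of 6. From let-7i-5p down to let-7e-5p, each member was above the next in 6 of 6 libraries, by 0.45 to 1.45 on the log2 scale. The last step, from let-7e-5p to miR-98-5p, was 1.07 ± 0.89 (SD, n = 6) and held in 5 of 6 libraries, with control 1 as the exception.

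Members that were close in sequence did not always have similar profiles over the libraries. The profile of 2 members over the 6 libraries was compared by the root-mean-square difference of their centred log2 levels, which is 0 for parallel profiles. It was 0.1995 for let-7a-5p and let-7c-5p, which differ at 1 base, and 0.975 for let-7a-5p and let-7f-5p, which also differ at 1 base. The closest pair was let-7d-5p and let-7e-5p (0.178), which differ at 3 bases and lie on different chromosomes. For let-7e-5p and let-7i-5p, which differ at 5 bases, it was 0.202. The median was 0.473 over the 4 pairs that differ at 1 base, 0.558 over the 10 pairs at 2 bases, 0.568 over the 11 pairs at 3 bases and 0.625 over the 9 pairs at 4 bases. The remaining pairs were the one at 5 bases, given above, and let-7d-5p with let-7i-5p at 6 bases (0.284). These pairs share members and libraries, so the values are descriptions. No member had the same counts in all 6 libraries as another miRNA.

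Compared with other miRNAs of at least moderate level, 8 of the 9 members had a coefficient of variation (CV) over the 6 libraries below the median. Among the 204 miRNAs whose mean reached 100 TMM-normalized CPM, let-7c-5p had the smallest CV (10.4%, rank 1) and let-7a-5p ranked 3 (10.9%), against a median of 70.7%. This median includes miRNAs with no counts in control 1 and control 2. Their CVs are high, as 80.6% in an example, and raise it. The CV was 47.5% for let-7i-5p, 70.6% for let-7f-5p, just under the median, and 123% for miR-98-5p. Which member was steadiest depended on the scale. By library totals the median CV was 66.0%, and let-7i-5p had the smallest CV of the family (13.8%, rank 3 of 204), followed by let-7d-5p (18.7%) and let-7e-5p (19.0%), while let-7c-5p (35.6%) and let-7a-5p (41.0%) ranked 26 and 36. Within groups on the TMM scale, the CV of let-7f-5p was 58.2% among control libraries and 24.0% among CIH libraries, beside medians of 83.9% and 26.1%.

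**Figure D5:**
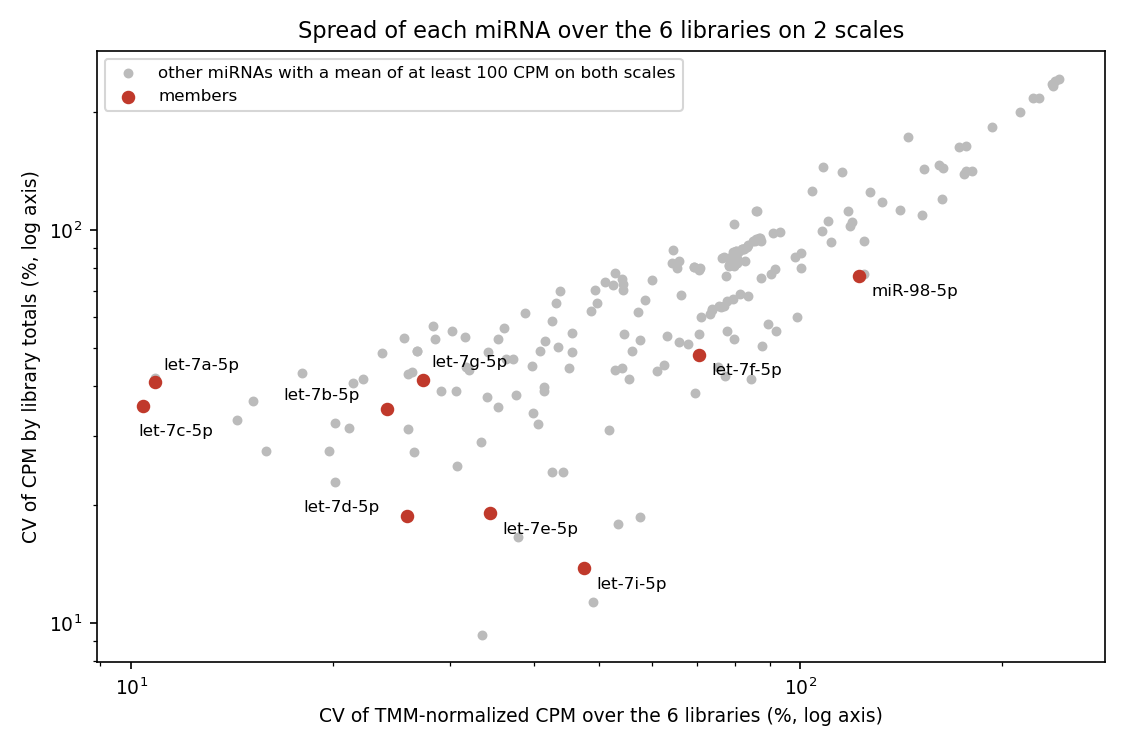
Coefficient of variation over the 6 libraries (%, log axes) with TMM factors (horizontal) and with library totals (vertical) for 201 miRNAs whose mean reached 100 CPM on both scales, members in red. The points of let-7a-5p and let-7c-5p lie at the left edge, at 10.9% and 10.4%, and that of let-7i-5p lies near the bottom, at 13.8%.

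On the TMM scale, 6 of the 9 members (let-7b-5p, let-7d-5p, let-7e-5p, let-7f-5p, let-7i-5p and miR-98-5p) were higher in control 1 and in control 2 than in every other library, and 16.1% of the 633 miRNAs were. By library totals the members were let-7f-5p, let-7i-5p and miR-98-5p, 3 of 9, against 7.42% of all miRNAs. For miR-98-5p this was a near tie, with 173 CPM in control 2 and 164 CPM in both control 3 and CIH 2. On that scale let-7c-5p and let-7g-5p were lower in control 1 and control 2 than elsewhere, 2 of 9, as were 39.7% of all miRNAs. These 2 libraries were singled out after their values were seen, and nothing was tested on them.

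The miRNAs outside the family whose profile came closest to the summed family level were found among 163 miRNAs whose mean reached 100 CPM, with counts in all 6 libraries. The root-mean-square difference of centred log2 levels was 0.240 for MIMAT0003727 and 0.247 for MIMAT0003711, against a median of 0.896. The level of MIMAT0003727 was 562, 409 and 304 TMM-normalized CPM in control 1, 2 and 3. In CIH 1, 2 and 3 it was 364, 218 and 218. On this scale its highest values were in control 1 and control 2, as for the family. These miRNAs were picked for this likeness on the TMM scale, so it is not a separate result. By library totals the family was not highest in both of these control libraries. The sources used here do not pair these accessions with names.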

How the data were processed

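Small RNA was sequenced from mouse WAT in 3 control and 3 CIH libraries (8 weeks of CIH per the study's methods). The authors deposited a table of raw counts, the number of reads per mature miRNA and library, for 707 miRNAs. Adapter trimming, alignment, the database release and the rule for reads with several matches are not given in the sources used here, and among members that differ at a single base these choices could move reads from one to another. Groups and replicate numbers came from the labels. Nothing in the labels states that the libraries of a group come from separate animals, so p-values measure the spread between libraries. No 2 libraries agreed within counting noise.

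A miRNA was tested if its counts over the 6 libraries summed to at least 10, which 633 did. They were fitted with edgeR 4.0.16 (TMM, quasi-likelihood test, group only) in R 4.3.3, with Benjamini-Hochberg adjustment over all of them. The script was first run on simulated data. These lacked the split between libraries seen here, so they do not show how the fit performs with it. Standard errors came from the fold change and the F statistic. Shares and ratios were compared with exact permutation tests. The ratios, the CVs, the order of members and the pair profiles were added after the values were seen. Python 3.11.15, scipy 1.17.1 and pandas 2.3.3 were used. Alternatives were DESeq2 1.42.0, limma 3.58.1 with voom, other scalings and filters, the replicate number as a block, and single libraries left out. Mature sequences and hairpins were matched by name in RefSeq (9 of 9), and host genes came from GENCODE M21, both on GRCm38. The rule for naming took all 9 members and, outside the family, the 5 miRNAs with the profile most like the summed level, of which the first 2 are printed. Passenger arms, cluster neighbours and cell type markers, also on the list, are not analysed here for want of names. The members and lists were chosen with earlier results of these data known.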

Additional observations from a re-analysis of the deposited data

How the results depend on the processing

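Across the alternatives, the number of members with an adjusted p under 0.05 was 0 in every setting, and the number of all miRNAs was 0 in every setting but the fit without control 3, so its range over the fits with a library left out was 0 to 118. The members at an unadjusted p under 0.05 with a 1.5-fold change numbered 0 to 2 when single libraries were left out (2 without control 3) and numbered 1 with upper-quartile factors (miR-98-5p). Over all miRNAs that count was 16, and it was 26 with DESeq2, 75 with limma voom, 39 with upper-quartile factors and between 1 (without CIH 3) and 238 (without control 3) when single libraries were left out, with 6 each without CIH 1 and CIH 2. Over all miRNAs, the median log2 fold change was 0.33 with library totals, 0.32 without the 5 most abundant miRNAs, 0.37 with limma voom and 0.07 with the original settings. The log2 fold changes of let-7d-5p, let-7e-5p, let-7f-5p, let-7i-5p and miR-98-5p were negative in all 15 alternatives, and their size depended on the setting. It ran from -1.12 to -0.051 for let-7d-5p, -1.27 to -0.16 for let-7e-5p, -2.06 to -0.83 for let-7f-5p and -1.42 to -0.28 for let-7i-5p, each from upper-quartile factors to library totals, and from -2.48 (upper-quartile factors) to -0.34 (without control 1) for miR-98-5p. The others changed sign in some. With upper-quartile factors let-7a-5p was at -0.53 and let-7c-5p at -0.43. For let-7b-5p the values were 0.30 with library totals, 0.19 without the 5 most abundant miRNAs and 0.043 with at least 10 counts in every library, and they lay between -0.40 and 0.027 when single libraries were left out (0.027 without control 2, 0.014 without CIH 1). For let-7g-5p they were 0.26, 0.24 and 0.091 in the same 3 settings, and they lay between -0.24 and 0.22 (0.22 without control 1, 0.044 without control 3, 0.0030 without CIH 1, 0.17 without CIH 3). With a denominator without the 5 most abundant miRNAs outside the family, the family's share in CIH minus control was -1.95 percentage points in place of -0.66. The causes were not tested. Replicate numbers 1 to 3 occur in both groups. Libraries with the same number had deviations from the group mean that correlated at 0.353, -0.116 and 0.0195. These values cannot decide whether the libraries are paired, because the control mean mixes libraries that stood apart. With the replicate number as a block, 0 members and 0 miRNAs had an adjusted p under 0.05, 3 miRNAs and 0 members met the unadjusted level with a 1.5-fold change, and let-7f-5p was at -1.08. The alternatives with passenger arms and without pancreatic miRNAs were not run, because accessions are not paired with names. Depth limited miR-98-5p most, with 73 counts in CIH 3.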
